A study of Homo sapiens with 6 samples.

Results

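A set of 10 S100 calcium-binding genes were followed: S100A2, S100A3, S100A4, S100A6, S100A10, S100A11, S100A13, S100A14, S100A16 and S100P. They were taken by symbol from a table of 28395 genes, which held 21 S100 genes in all, and all 10 passed the filter for testing, a mean signal over the 6 libraries of 10 or more, as did 14215 genes in all. The cells were HCC827, an established human lung adenocarcinoma line whose EGFR has an activating deletion. They were treated for 24 h with the vehicle DMSO (3 libraries, DMSO 1 to 3) or with 1 µM erlotinib (3 libraries, erlotinib 4 to 6). Erlotinib is an inhibitor of the EGFR tyrosine kinase. Both groups were therefore the same unedited line, at a single dose and time. The libraries were made from poly(A) RNA and held between 20760204 reads on genes (erlotinib 5) and 24641819 (DMSO 2). The labels call the libraries separate samples but do not say whether they came from separate cultures, so the p-values measure the spread between these libraries, which may be technical. DMSO 2 stood apart from the other DMSO libraries: the chi-square of the reads per degree of freedom was 22.9 against DMSO 1 and 14.4 against DMSO 3, while it was 7.61 between DMSO 1 and 3 and at most 5.87 between erlotinib libraries.

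S100 proteins are small cytoplasmic proteins of vertebrates that usually work as dimers. Each subunit carries a pair of EF-hands, the helix-loop-helix motif that holds a calcium ion, and calcium binding opens a surface that grips a target protein. They have no enzymatic activity of their own: they act through what they bind, such as annexins at the membrane, myosin and ezrin at the cytoskeleton, and co-chaperones, and some are released and act on cell-surface receptors. Epithelia and carcinomas express many of them, and most S100A genes lie side by side on chromosome 1, around the genes for the cornified envelope of the skin.

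The treatment was checked on 6 genes that the EGFR to ERK pathway switches on. All 6 fell. DUSP6, a phosphatase that shuts off ERK, fell from 1391 ± 25.3 to 68.2 ± 5.35 (mean signal ± SD, n = 3 each, in reads divided by the size factor of the library), a log2 fold change of -4.33. The log2 fold change was -4.15 for FOSL1, a subunit of the transcription factor AP-1, and -3.23 for the cyclin gene CCND1, and it was -3.95, -3.67 and -4.38 for SPRY4, ETV4 and ETV5.

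Of the 10 S100 genes, S100A2, S100A10, S100A11 and S100A16 fell with erlotinib, S100A4 and S100P rose, and S100A3, S100A6, S100A13 and S100A14 did not pass the test (limma on log2(signal + 1), two-sided, Benjamini-Hochberg adjusted p under 0.05 over all tested genes). The same 6 genes had no overlap between the groups. Without DMSO 2 the counts were also 4 lower and 2 higher. These counts have to be read against a broad response: of all tested genes 70.7% passed, 35.4% lower and 35.3% higher, and 73.6% had no overlap between the groups. The 6 of 10 S100 genes that passed are a share of 60%, below that background. The median log2 fold change of all 10 S100 genes was -0.01, beside 0.02 over all tested genes. Scaling the libraries to their total count in place of the size factors moved the median of all genes to 0.19 and their split from 5031 lower and 5012 higher to 3955 and 6156, and the S100 genes then split into 3 lower and 4 higher. In these bulk samples, fewer cells of a kind and less RNA per cell cannot be told apart.

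**Figure D1:**
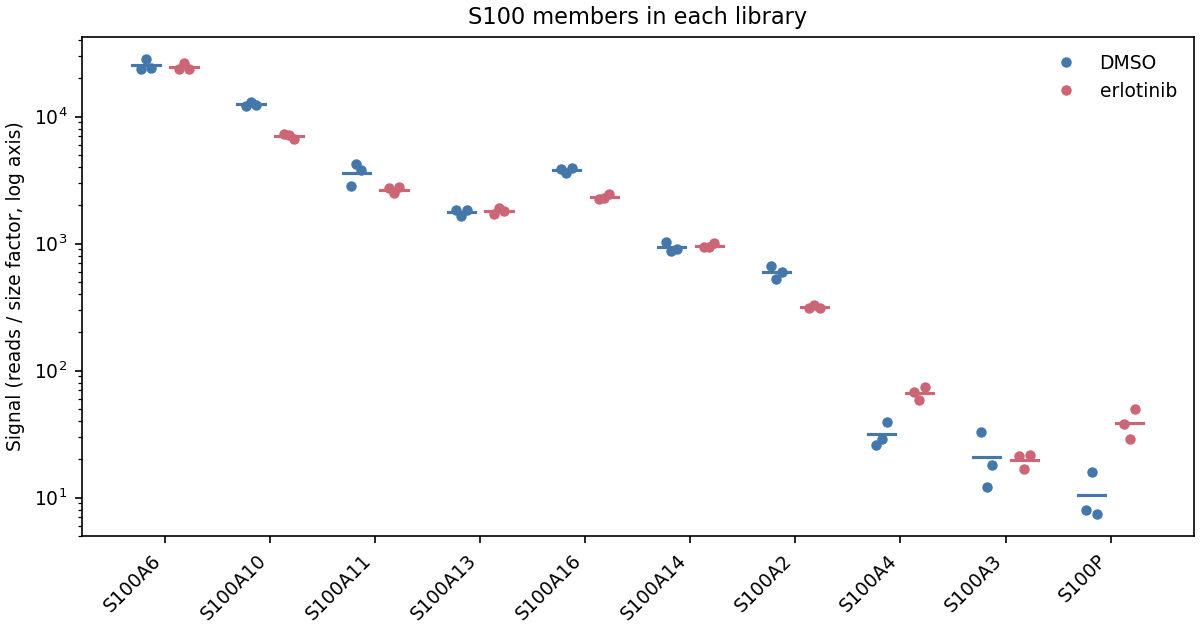
Signal of the 10 S100 genes in each of the 6 libraries (reads divided by the size factor, log axis), ordered by their level per kb in DMSO; points are libraries and bars are group means of 3. S100A10 and S100A16 are lower and S100P is higher in every erlotinib library, while the points of S100A6 lie between 23498 and 28127 in both groups.

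The sequences before the start of 5 of the 6 genes that passed are shown so that falls and rises can be compared: S100A10, the most abundant S100 gene that fell; S100A2 and S100A16, which fell within the distal block of the cluster; and S100A4 and S100P, which rose. Each is the 250 bases before the first listed start, from RefSeq (GRCh38.p14), 5′ to 3′ on the strand of the gene. They lie at chr1:151993860-151994109, chr1:153565845-153566094, chr1:153613138-153613387 and chr1:153545807-153546056, all on the minus strand, and for S100P at chr4:6693628-6693877 on the plus strand. Capitals mark matches to the AP-1 letters TGANTCA, the TEAD letters GGAATG and the TATA box letters TATAAA, each searched on both strands.
S100A10: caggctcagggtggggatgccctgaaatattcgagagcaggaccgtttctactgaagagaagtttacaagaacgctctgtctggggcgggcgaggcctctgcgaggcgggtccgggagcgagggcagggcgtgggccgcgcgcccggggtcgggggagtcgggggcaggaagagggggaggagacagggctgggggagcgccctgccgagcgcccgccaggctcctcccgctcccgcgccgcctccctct
S100A2: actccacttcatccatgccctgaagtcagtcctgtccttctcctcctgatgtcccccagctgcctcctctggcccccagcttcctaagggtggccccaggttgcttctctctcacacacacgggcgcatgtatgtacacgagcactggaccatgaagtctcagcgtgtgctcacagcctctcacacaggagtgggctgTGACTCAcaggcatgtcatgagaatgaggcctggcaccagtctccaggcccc
S100A16: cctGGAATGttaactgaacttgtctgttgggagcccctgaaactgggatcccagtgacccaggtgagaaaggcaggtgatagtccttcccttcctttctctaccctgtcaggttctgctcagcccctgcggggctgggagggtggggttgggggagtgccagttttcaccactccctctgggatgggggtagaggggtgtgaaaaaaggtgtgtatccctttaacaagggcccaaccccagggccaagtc
S100A4: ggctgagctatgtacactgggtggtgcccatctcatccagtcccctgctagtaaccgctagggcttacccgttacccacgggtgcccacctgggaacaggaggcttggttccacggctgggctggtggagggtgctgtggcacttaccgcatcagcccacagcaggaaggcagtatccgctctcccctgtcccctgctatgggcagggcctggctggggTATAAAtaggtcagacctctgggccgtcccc
S100P: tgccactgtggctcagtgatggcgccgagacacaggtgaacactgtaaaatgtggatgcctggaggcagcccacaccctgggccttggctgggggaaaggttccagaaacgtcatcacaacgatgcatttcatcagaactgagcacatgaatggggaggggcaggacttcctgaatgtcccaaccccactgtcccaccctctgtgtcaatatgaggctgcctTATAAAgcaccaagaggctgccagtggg
Both genes that rose hold TATAAA close to the start, 31 bases before it in S100A4 and 28 in S100P, and none of the other 8 holds it. The letters do not follow the direction of change over the other tested S100 genes: S100A9, which fell, holds TATAAA 29 bases before its start, and S100A1, which rose, does not hold it. Of 27305 promoters of this length, 11.1% hold these letters. TGANTCA stands 52 bases before the start of S100A2, which fell, and 225 before that of S100A3, which did not pass the test; 6.6% of all promoters hold it. GGAATG is at the far end of the S100A16 window, 247 bases before the start (11.9% of all promoters hold the TEAD letters). The GC box letters GGGCGG are, on either strand, in 5 of the 10 windows, those of S100A10, S100A11, S100A6, S100A3 and S100A13, against 42.3% of all promoters, and the letters CCAAT in that of S100A3 alone, against 33.0%. No searched motif overlapped another in the sequences printed. The windows of S100A10 and S100A6 were the richest in G and C (71.2% and 70.0%), and that of S100P the poorest (55.6%). These matches are letters in a window, not tested binding sites.

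Levels between genes were compared per kb of the canonical transcript (GENCODE release 44), so their order depends on the transcript lengths used. Before division by length, the mean DMSO signal was 3798 for S100A16, 3602 for S100A11 and 1774 for S100A13. S100A6, or calcyclin, was the most abundant S100 transcript in both groups, with 58140 ± 5799 signal per kb in DMSO and 56460 ± 3880 with erlotinib. S100A10 followed with 18560 ± 634 in DMSO, then S100A11 with 6399 ± 1266, S100A13 with 3718 ± 239.7 and S100A16 with 3241 ± 165.3. S100A14 (888.4 ± 77.95) and S100A2 (609.2 ± 67.09) were intermediate, and S100A4 (61.4 ± 13.9), S100A3 (28.4 ± 14.4) and S100P (22.1 ± 9.91) were near the bottom. Each neighbour in this order was separated from the next in every DMSO library except S100A3 and S100P, whose ranges overlapped. With erlotinib the first 8 places were unchanged and S100P, at 82.2 ± 22.3, stood above S100A3, at 26.8 ± 3.55, in every library.

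S100A10 is the exception of the family that does not bind calcium: it is held in its active form and joins with annexin A2 in a complex under the plasma membrane that binds plasminogen. Its signal was 12204, 12946 and 12214 in DMSO 1 to 3 and 7253, 7121 and 6622 in erlotinib 4 to 6. The groups were far apart beside the spread within each of them. The log2 fold change was -0.83 (SE 0.06, 95% interval -0.96 to -0.70, adjusted p = 2.2e-10 by limma), or 1.78-fold lower.

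S100A11, which pairs with annexin A1 and is also met in the nucleus, had a signal of 2825, 4224 and 3759 in DMSO and 2733, 2478 and 2778 with erlotinib. DMSO 1 lay just above the highest erlotinib library, so the groups were separated by a narrow gap. The log2 fold change was -0.42 (SE 0.10, 95% interval -0.63 to -0.20, adjusted p = 0.00119 by limma). With libraries scaled to the total count it was -0.24 with an adjusted p of 0.0652, which ends the call; relative to the median of all genes it was -0.43 under either scaling. Leaving out 1 library gave values between -0.58 and -0.29, and all of these passed.

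S100A16, a widely expressed member that binds calcium weakly, had a signal of 3857, 3582 and 3956 in DMSO and 2240, 2304 and 2457 with erlotinib. Every erlotinib library was below every DMSO library. The log2 fold change was -0.70 (SE 0.07, adjusted p = 1.56e-08 by limma).

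S100A2 is a mainly nuclear S100 protein of basal and squamous epithelium. It fell from 661, 530 and 594 in DMSO to 310, 330 and 314 with erlotinib, without overlap. Its log2 fold change of -0.90 (SE 0.11, 95% interval -1.13 to -0.66, adjusted p = 5.02e-07 by limma) was the largest fall among the 10 genes, at 1.87-fold.

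S100A4, known as metastasin, binds non-muscle myosin and marks motile and mesenchymal cells. It rose from 26.1, 28.8 and 39.6 in DMSO to 67.4, 58.4 and 74.9 with erlotinib. The groups did not overlap, but the gene was scarce: the recovered reads were 23, 31 and 37 against 73, 59 and 80. The log2 fold change was 1.08 (SE 0.29, 95% interval 0.48 to 1.68, adjusted p = 0.00232 by limma).

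S100P, first found in placenta, binds ezrin and is the 1 member of the 10 that lies outside chromosome 1. Its signal was 7.94, 15.8 and 7.49 in DMSO and 37.8, 28.7 and 49.6 with erlotinib, from 7, 17 and 7 reads against 41, 29 and 53. The lowest erlotinib library was above the highest DMSO library. The log2 fold change was 1.84 (SE 0.44, 95% interval 0.92 to 2.76, adjusted p = 0.000955 by limma), the largest rise among the 10. It rested on few reads, and a filter of at least 10 reads in every library removes the gene.

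The 4 genes that did not pass differ in how much they can show. S100A6 had a signal of 23547, 28127 and 24028 in DMSO and 23565, 26448 and 23498 with erlotinib, with overlapping groups. Its log2 fold change was -0.04 with a 95% interval of -0.19 to 0.11 (adjusted p = 0.641 by limma). S100A13, which helps FGF1 and IL1A leave the cell without a signal peptide, had 1847, 1642 and 1832 in DMSO and 1709, 1908 and 1803 with erlotinib, and an interval of -0.13 to 0.19 around 0.03.

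S100A14, an epithelial member, had 1030, 877 and 902 in DMSO and 938, 934 and 1006 with erlotinib, and an interval of -0.15 to 0.22 around 0.04. For these 3 genes the intervals leave no room for a change as large as that of S100A16. S100A3, a zinc-binding protein of the hair cuticle, had 32.9, 12.1 and 18.2 in DMSO and 21.2, 16.8 and 21.5 with erlotinib. Its interval of -0.91 to 0.96 is wide enough to hold a change in either direction as large as most of those above. S100A13 and S100A14 passed as higher when the libraries were scaled to the total count (0.21 and 0.22), but relative to the median of all genes they stood at 0.01 and 0.02 there, as they did with the size factors.

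**Figure D2:**
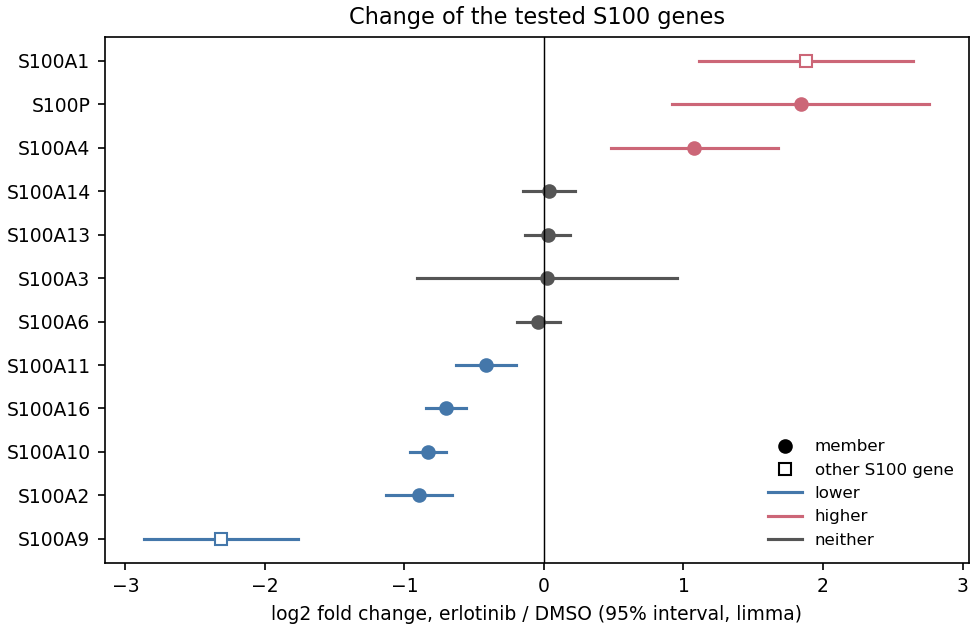
Log2 fold change of erlotinib over DMSO (x axis) with its 95% interval from limma for the 12 S100 genes that were tested; filled circles are the 10 genes followed here and open squares are S100A9 and S100A1. The intervals of S100A6, S100A13 and S100A14 are narrow and cross 0, while that of S100A3 crosses 0 and reaches from -0.91 to 0.96.

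Summed over the 10 genes, the signal was 46038, 51984 and 47351 in DMSO and 38874, 41625 and 38624 with erlotinib, a ratio of the means of 0.819, with the highest erlotinib library below the lowest DMSO library (two-sided exact permutation test, p = 0.1, the smallest that 3 against 3 libraries allow, and 0.15 after adjustment over the 3 sums computed). In CPM, the reads scaled to a common total per library, the sum was 2102 ± 163 in DMSO and 1950 ± 66.2 with erlotinib, and there the groups overlapped (exact p = 0.2). The make-up of the sum also differed between the groups. Per kb, S100A6 supplied 62.8, 65.1 and 62.2% of the S100 signal in DMSO and 70.6, 73.1 and 70.9% with erlotinib. S100A10 supplied 21.1, 19.4 and 20.4% in DMSO and 14.1, 12.7 and 12.9% with erlotinib. The share of S100A16 went from 3.56 ± 0.42% to 2.53 ± 0.20%, and that of S100A13 from 4.08 ± 0.55% to 4.80 ± 0.15%. None of these 4 shares overlapped between the groups (exact permutation p = 0.1 for each of the 4, and 0.143 adjusted over 10 shares), nor did those of S100A2, S100A4 and S100P. A lack of overlap was common: the signal of 73.6% of all tested genes showed it. Without DMSO 2 the difference in the S100A13 share went from 0.718 to 0.404 points. The share of S100A11 was 5.81, 7.53 and 7.50% in DMSO and 6.31, 5.28 and 6.46% with erlotinib and overlapped (exact p = 0.3); without DMSO 1 they did not overlap and the difference went from -0.928 to -1.50 points, and without erlotinib 5 it was -0.559. The groups also overlapped in the shares of S100A14 (exact p = 0.2) and S100A3 (exact p = 1). Without division by transcript length the share of S100A14 did not overlap (exact p = 0.1) and its difference was 0.477 in place of 0.181 points, that of S100A16 -1.99 in place of -1.03 and that of S100A2 -0.437 in place of -0.258. Per kb, the S100A14 difference ranged from 0.110 to 0.258 points with 1 library left out. Shares sum to a whole, so a gene whose level did not pass the test, such as S100A6, takes a larger share where others fell.

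**Figure D3:**
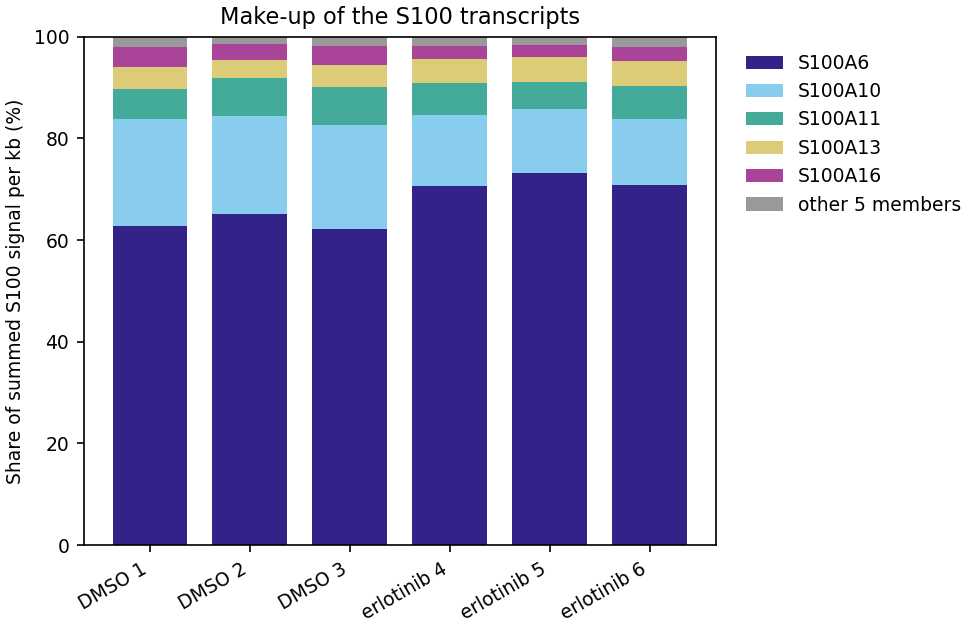
Share of each S100 gene in the summed S100 signal per kb (y axis, %) in each library. S100A6 makes up 62.2 to 65.1% in the DMSO libraries and 70.6 to 73.1% in the erlotinib libraries, and S100A10 shrinks from about 20.3% to 13.2%.

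A further 11 S100 genes were in the table, and 2 of them passed the filter on low values. S100A9, a subunit of calprotectin in myeloid cells and inflamed epithelium, fell from 227, 160 and 115 in DMSO to 25.8, 31.7 and 38.4 with erlotinib. Every erlotinib library was below every DMSO library, and the log2 fold change was -2.31 (SE 0.26, adjusted p = 1.23e-07 by limma), or 5.23-fold lower by the means. S100A8, its partner in calprotectin, was under the filter, at 6.79 ± 5.58 in DMSO and 1.86 ± 1.61 with erlotinib. S100A1, the calcium sensor best known from heart muscle, rose from 10.2, 14.9 and 19.3 to 70.1, 51.5 and 46.8 (log2 fold change 1.88, SE 0.37, adjusted p = 0.000121 by limma), from 9, 16 and 18 reads against 76, 52 and 50. S100A5 was under the filter, S100A7, S100A7A, S100A7L2, S100A12 and S100B were listed at 0 in every library, and S100G and S100Z had 2 reads in 1 library each.

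Of the 10 genes, 9 lie on chromosome 1 (GRCh38.p14, RefSeq), all on the minus strand. S100A10 (chr1:151982915-151993859) and S100A11 (chr1:152032506-152037004) sit together at the low-coordinate end. The next S100 gene that was tested, S100A9, is 1321 kb away, and S100A6, S100A4, S100A3, S100A2, S100A16, S100A14 and S100A13 follow between 153534599 and 153634361. S100P is on chromosome 4 (chr4:6693878-6697170). Consecutive tested S100 genes were compared by their log2 ratio within each library. Other tested genes lie between S100A11 and S100A9, and S100A13 and S100A1 overlap. S100A16 and S100A14 are 1.12 kb apart, and the log2 fold change of S100A16 was 0.74 lower than that of S100A14, without overlap between the groups. S100A4 and S100A3 are 1.52 kb apart, and S100A4 was 1.05 above S100A3. S100A10 and S100A11 are 38.6 kb apart, and their log2 fold changes differed by -0.41. S100A14 and S100A13, 2.47 kb apart, differed by 0.01 with overlapping groups. Over the 10 pairs of consecutive tested S100 genes, 9 had no overlap in their log2 ratio (exact permutation p = 0.1 each, 0.111 adjusted over the 10 pairs), and S100A14 with S100A13 was the exception (exact p = 0.9). Over all 14081 pairs of adjacent tested genes the share without overlap was 71.7%, so such differences were common throughout the table.

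S100A13 shares sequence with other genes: S100A1 lies within it on the opposite strand, over 3606 bp, and CHTOP overlaps it by 296 bp. The strand setting of the counting is not stated in the sources used here, so reads of S100A1 and S100A13 cannot be fully told apart. S100A6 lies over its whole 1393 bp within the non-coding gene LOC124904423, which was not analysed here. S100A4 overlaps S100A5 by 65 bp, and S100A3 lies within the non-coding gene LOC101928034, whose mean signal was below the filter. No transcript of the 10 genes had a second match in the genome of at least 50 bases at 95% identity.

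Within 1 Mb of the chromosome 1 cluster, 52 of 124 other genes were tested, and 13 fell, 19 rose and 20 did not pass, with a median log2 fold change of 0.11, beside 35.4% lower and 35.3% higher over all tested genes. With libraries scaled to the total count, 11 fell and 29 rose. Of the 19 that rose, 3 had a mean under 10 in DMSO and reached the filter only through their erlotinib values, and 16 rose when at least 10 reads were asked of every library. SEMA6C, a semaphorin gene, rose from 38.2 ± 9.40 to 327 ± 21.0 (log2 fold change 3.09). ANXA9, an annexin gene, rose by 2.29. TPM3, a tropomyosin gene, fell from 15564 ± 970 to 6521 ± 254 (-1.25), ILF2 had a log2 fold change of -0.92 and JTB of -0.82. The epidermal differentiation genes of this region were mostly under the filter: 3 of 41 were tested and 26 were listed at 0 in every library. A 0 in this table need not mean that a gene is silent, since INTS3, a gene of the same region that cells generally use, was also listed at 0 in every library. Of the 3, SPRR1B, a cornified envelope precursor, was the gene that fell (72.2 ± 5.89 to 22.1 ± 6.90, log2 fold change -1.70, adjusted p = 6.1e-05 by limma; named after its value was seen). SPRR1A and SPRR3 did not pass.

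**Figure D4:**
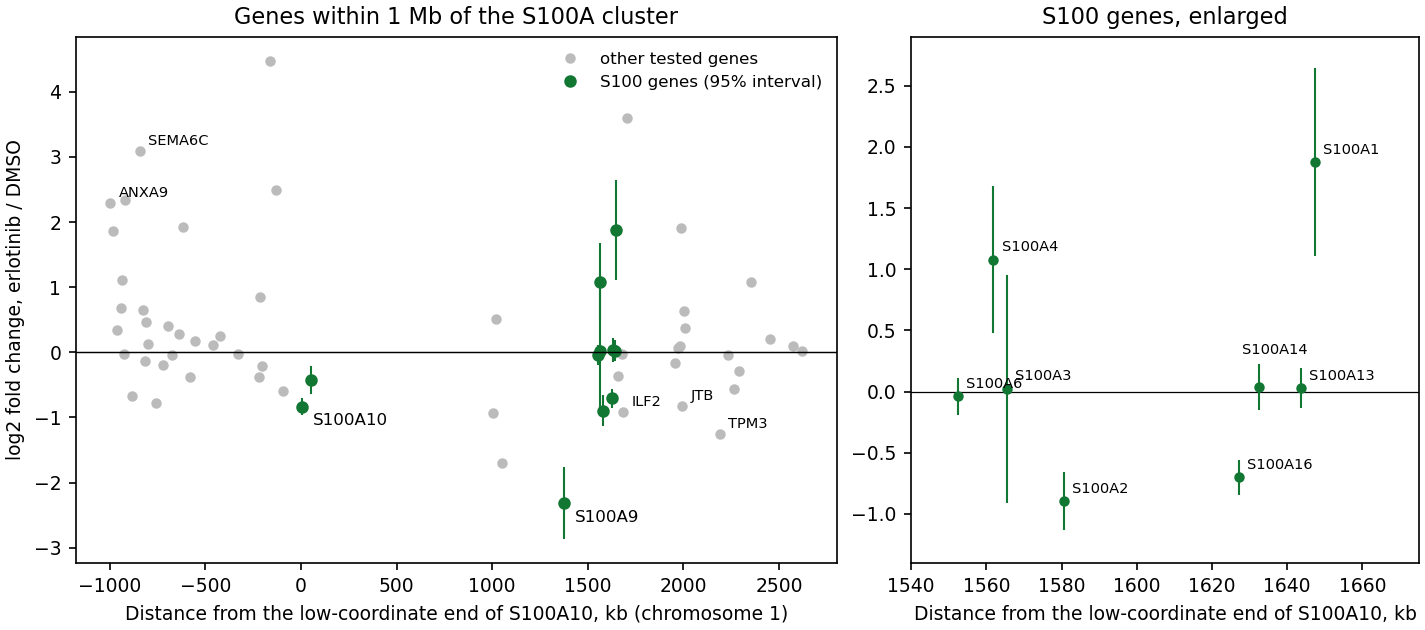
Log2 fold change of erlotinib over DMSO (y axis) against distance in kb from the low-coordinate end of S100A10, for the tested genes within 1 Mb of the S100A cluster (grey) and the tested S100 genes (green, with 95% intervals); the right panel enlarges the block from S100A6 to S100A1. S100A4 and S100A1 lie above 0 and S100A2 and S100A16 below 0 within about 100 kb.

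The annexins are the best-known membrane partners of the S100 proteins, and 9 of 13 were tested: 4 fell, 4 rose and 1 did not pass, with a median of -0.17. ANXA2, the partner of S100A10, fell from 9048, 10034 and 9268 to 6582, 6290 and 6327 (log2 fold change -0.56, SE 0.06, adjusted p = 1.03e-07 by limma). Transcripts of both components of the S100A10 and annexin A2 complex were lower. The log2 ratio of S100A10 to ANXA2 signal was 0.43, 0.37 and 0.40 in DMSO and 0.14, 0.18 and 0.07 with erlotinib. ANXA1, the partner of S100A11, moved the other way, from 4279, 5429 and 4358 to 6070, 5730 and 5687 (0.32, adjusted p = 0.00119 by limma). Its log2 fold change ranged from 0.26 to 0.50 over the 17 alternative settings. The log2 ratio of S100A11 to ANXA1 went from -0.39 ± 0.19 to -1.13 ± 0.09.

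ANXA11, to which S100A6 binds, rose from 2324 ± 270 to 3347 ± 79.6 (0.53), and the log2 ratio of S100A6 to ANXA11 went from 3.44 ± 0.31 to 2.87 ± 0.07. S100A4, which can also bind annexin A2, rose against it by 1.64 on the log2 scale. None of these 4 ratios overlapped between the groups (exact permutation p = 0.1 for each, before and after adjustment over the 4), which is to be read beside the 71.7% of adjacent gene pairs without overlap. Among the other annexins, ANXA4 rose by 1.11 and ANXA9 by 2.29, while ANXA5, known for its binding to phosphatidylserine, had a log2 fold change of -1.21, ANXA3 of -0.69 and ANXA7 of -0.56, all falls past the threshold.

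Of 36 genes for other partners, targets and receptors of S100 proteins, 28 were tested, and 13 fell, 7 rose and 8 did not pass (median -0.20). FKBP4, an immunophilin of the HSP90 machinery, fell from 7308 ± 437 to 2578 ± 134 (log2 fold change -1.50), STIP1, the adaptor between HSP70 and HSP90, from 3026 ± 110 to 1179 ± 53.5 (-1.36), and CACYBP, the calcyclin-binding protein named for S100A6, from 2132 ± 220 to 839 ± 51.8 (-1.34). FGF1, a cargo of S100A13, fell from 104 ± 31.6 to 28.6 ± 7.26 (-1.82). SYT1, a synaptotagmin of the same release complex, rose from 309 ± 23.4 to 1115 ± 4.34 (1.85). IL1A, also a cargo of S100A13 and named after its value was seen, did not pass (45.4 ± 29.2 to 31.2 ± 4.64, -0.36, adjusted p = 0.404 by limma). MYH14, a non-muscle myosin heavy chain, rose from 804 ± 200 to 3181 ± 71.6 (2.01), and the receptor gene ERBB2 from 2313 ± 81.6 to 5337 ± 7.06 (1.21). The other non-muscle myosin heavy chains, which are named after their values were seen, fell: MYH9, the most abundant, from 29836 ± 1906 to 24951 ± 1878 (-0.26, adjusted p = 0.00269 by limma) and MYH10 from 3370 ± 187 to 2268 ± 123 (-0.57). With total-count scaling MYH9 was at -0.08 and did not pass (adjusted p = 0.293 by limma), and 11 of the partner genes fell. The 7 genes FKBP4, STIP1, CACYBP, FGF1, SYT1, MYH14 and ERBB2 were named for the size of their changes past the threshold. Their adjusted p from limma was at most 1.12e-05, and their groups did not overlap, as in 73.6% of all tested genes. Both follow largely from that choice.

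Of 43 other EF-hand genes, 28 were tested, and 14 fell, 4 rose and 10 did not pass (median -0.28). EFHD2, an actin-binding EF-hand protein, fell from 10304 ± 832 to 3983 ± 33.6 (-1.37), HPCAL1, a neuronal calcium sensor protein, from 4134 ± 412 to 1840 ± 111 (-1.16), CALML4, a calmodulin-like protein, from 348 ± 10.4 to 157 ± 27.5 (-1.15), and CALM2, which encodes calmodulin, from 10100 ± 992 to 4683 ± 210 (-1.11). NUCB1, a calcium-binding protein of the Golgi, rose from 1353 ± 186 to 3034 ± 108 (1.17), CAPN1, the catalytic subunit of calpain 1, by 0.64, CHP1 by 0.27, and CAPNS1, the small regulatory subunit of calpains, by 0.22. CAPN2, the catalytic subunit of calpain 2, was named after its value was seen and fell from 20022 ± 854 to 11555 ± 88.3 (-0.79). Over the 17 alternative settings the log2 fold change of CHP1 ranged from 0.20 to 0.45 and that of CAPNS1 from 0.17 to 0.40. With libraries scaled to the total count, 9 of the 28 rose. All of these counts are descriptions of lists chosen for their relation to S100 proteins, to be read beside 35.4% lower and 35.3% higher over all tested genes.

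**Figure D5:**
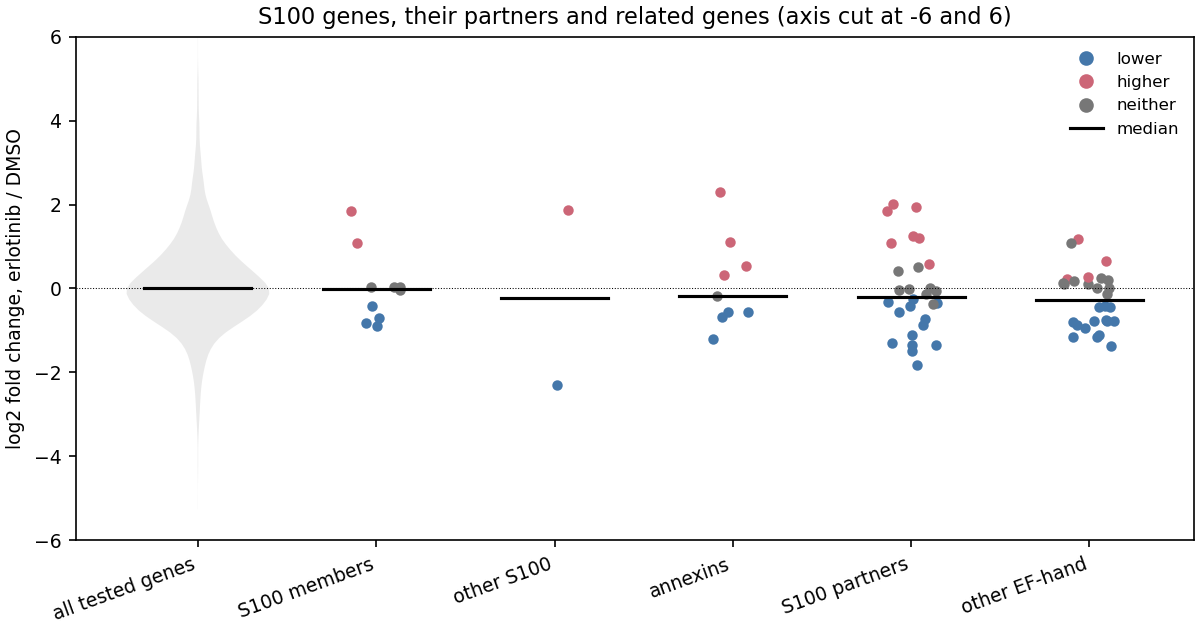
Log2 fold change of erlotinib over DMSO (y axis, cut at -6 and 6) for all tested genes (grey outline) and for each tested gene of the S100, annexin, partner and other EF-hand lists (points, coloured by the limma call), with medians as black bars. The S100 genes lie within the spread of all tested genes, with a median of -0.01 beside 0.02.

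Since some S100 genes mark particular cell types, markers were read in the same libraries. All 8 epithelial markers were above the filter, with a summed signal of 304710, 271110 and 295210 in DMSO and 222610, 226120 and 227750 with erlotinib, KRT7 being the most abundant of them, and 4 fell, 2 rose and 2 did not pass. The keratin genes KRT7 (log2 fold change -0.63), KRT8 (-0.83), KRT18 (-1.25) and KRT19 (-0.39) fell, the claudin gene CLDN4 (0.93) and the lung marker NKX2-1 (1.53) rose, and EPCAM (-0.05) and CDH1 (0.14) did not pass. Of 8 leukocyte markers 1 was above the filter, CD79A, and the summed signal was between 26.9 and 60.0 in every library, with FCGR3B at 0. Of 6 fibroblast markers 1 was above it, COL1A1, which rose, with the summed signal going from 71.5, 75.2 and 107 to 259, 223 and 215, and THY1 at 0. Of 4 endothelial markers 2 were above it, PECAM1 (15.7 ± 3.30 against 10.4 ± 2.20) and VWF (3.94 ± 3.32 against 27.4 ± 6.93), with sums of 34.0, 15.8 and 20.3 against 58.1, 46.5 and 45.9; VWF reached the filter only through its values with erlotinib. Of 8 keratinocyte markers 4 were above it, mainly KRT10, with sums of 1647, 2020 and 2026 against 1292, 1367 and 1331, and KRT1 at 0. KRT10 fell (log2 fold change -0.64), while KRT5 (0.07), KRT14 (-0.03) and DSC3 (-0.19) did not pass. COL1A1 moved in the direction of S100A4 and S100P, and KRT10 in that of S100A2 and S100A9; their part in those results was not tested.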

How the data were processed

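Poly(A) RNA of 6 HCC827 libraries was sequenced, 3 with DMSO and 3 with erlotinib. Alignment to GRCh38 by the authors used Bowtie2 (2.3.4) on read pairs, gene counting of unique alignments used featureCounts (1.6.3), and their differential expression used DESeq2 (1.18.1), per the methods and processing notes. The deposited signal is the read count divided by a size factor for each library (0.882 to 1.08): all values become whole after multiplication by it (tolerance 0.01), although the table is described as raw counts. Limma (3.58.1) with a mean-variance trend was used on log2(signal + 1) for genes whose signal averaged 10 or more, with Benjamini-Hochberg adjustment over 14215 genes. The fit was tested on simulated data. Fold changes on this scale understate those of low genes. Bowtie2 does not split reads at introns, so reads across junctions can be lost. The effect of this on the S100 genes, which have short exons, was not tested. edgeR (4.0.16) and DESeq2 (1.42.0) were run on the recovered reads. The labels assign the erlotinib columns to the group but not to single samples, so they are called by column number. Replicate libraries differed by more than sampling noise, DMSO 2 the most. The S100 genes and the gene lists were chosen with earlier results of these data known. Named genes were the 10 S100 genes, other tested S100 genes, up to 4 rises and 4 falls per list (mean signal at least 50), 3 of each near the cluster, and the EGFR output genes; some genes that this rule names are not reported here. Positions came from RefSeq, matched by Entrez identifier for 99.2% of the tested genes.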

Additional observations from a re-analysis of the deposited data

How the results depend on the processing

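Over 17 alternatives (edgeR with TMM or DESeq2-type factors, DESeq2, limma-voom, TMM or total-count scaling, pseudocounts of 0.1 and 10, no filter, at least 10 reads in every library, an adjusted p under 0.01, and each library left out), S100A2, S100A10, S100A16, S100A4 and S100A9 kept their direction and call in all 17, and S100P and S100A1 in the 16 that tested them. With total-count scaling, 4 S100 genes, 9 other EF-hand genes and 29 genes near the cluster were higher, and S100A6 turned to 0.14. With at least 10 reads in every library, 1 S100 gene of the 10 and 0 of the other S100 genes were higher, since S100P and S100A1 were not tested. With no filter, 2 epidermal differentiation genes were lower and 1 was higher. The S100A3 log2 fold change turned to -0.0475 with edgeR and TMM factors, -0.0645 with DESeq2, -0.0557 with edgeR and DESeq2-type factors, and -0.0051 with a pseudocount of 10. With 1 library left out, S100A3 ranged from -0.30 to 0.39, S100A6 from -0.0961 to 0.0406, S100A13 from -0.0276 to 0.0663, S100A14 from -0.0082 to 0.108, and the difference in the share of S100A3 from -0.0053 to 0.0122 points. The cause of these reversals was not tested. S100A3, S100A4 and S100P had 7 to 80 reads per library. No paired analysis was possible because the numbers of the erlotinib columns (4 to 6) do not match the replicate numbers in the labels.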
